A study of Mus musculus with 92 samples.

Results

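The 32 genes described here encode the enzymes of cholesterol and fatty acid synthesis and the proteins that control them. They were chosen by name, with no threshold on their values, as genes regulated by the sterol regulatory element-binding proteins (SREBPs), and are 32 of the 29956 named genes measured. Of these, 20 belong to the sterol branch and 12 to the fatty acid branch. SREBPs are transcription factors held in the endoplasmic reticulum by Scap and the Insig proteins while sterols are plentiful. When sterols run low, they are carried to the Golgi, cut, and released to the nucleus, where they switch on these genes. Srebf2 encodes the form that mainly drives sterol synthesis and Srebf1 the form that mainly drives fatty acid synthesis. Dividing cells use the pathway to build new membrane, and macrophages and microglia also take up lipid from engulfed cells and myelin, which lowers their need to make it.

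The study built microglia replacements from ER-Hoxb8 cells, mouse bone marrow progenitors held in an immature state by an estradiol-dependent Hoxb8 protein, and asked how such cells compare with primary cells in culture and in the brain, and what loss of the RNA-editing enzyme Adar1 does to them. RNA was sequenced in bulk from 92 libraries in 25 groups. The 3 ER-Hoxb8 lines came from FVB mice heterozygous for Cas9 and were grown with beta-estradiol and GM-CSF (day 0), or without estradiol with M-CSF for 4 or 7 days to give macrophages; the primary cells, all from wild-type FVB marrow, were lineage-depleted bone marrow progenitors, magnetically sorted monocytes and bone marrow-derived (BMD) macrophages (3 libraries each). Microglia-like cells (MLCs) were BMD cells (6 libraries) or ER-Hoxb8 cells (6 libraries, 3 with the column label GFPHox and 3 with WTHox), both labelled wild type where the cultured ER-Hoxb8 cells are labelled Cas9 heterozygous, injected into the brains of newborn Csf1r-/- mice, which lack microglia, and later sorted back out, and microglia (9 libraries) came from uninjected wild-type FVB mice of matched age. Microglia replicates 8 and 9 had the column label YSWT. BMD macrophage replicate 3 had the column label wBM, whereas the other BMD macrophages had Mac. The edited ER-Hoxb8 lines, all expressing Cas9, were sorted pools rather than single clones, and carried a non-targeting control guide (NTC), Adar1 sgRNA 1 or Adar1 sgRNA 2. They were sequenced as progenitors and as macrophages, and the NTC and sgRNA 1 macrophages also after baricitinib, an inhibitor of the JAK kinases that carry interferon signals. Doses were 0, 0.0006, 0.016, 0.4 and 10 µM by the sample labels, whereas the treatment text gives 0.00064 µM in place of 0.0006 and 0.16 µM in place of 0.016, and the labelled doses are used here.

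Values were log2 CPM, read counts scaled to a common library total, and a level is given on that scale throughout. The deposited table joins 6 separately normalized sets, recognised by their shared lowest value, and levels were compared only within a set. These sets held the marrow cells and day 0 and 4 ER-Hoxb8 cells (12 libraries), the macrophages and brain cells (27), the NTC and sgRNA 1 cells (11), NTC macrophage replicate 2 alone (1, left out of every test), the sgRNA 2 cells (8) and the baricitinib series (33). Between 12710 and 25646 genes lay above the lowest value in a library. Read depth is unknown, and if the lowest value stands for an offset of 2 counts, mean depth was 13.7 to 40.6 M counts per library by set. A difference between groups is a log2 difference of means with its standard error (SE), and a gene passed the test at an adjusted p below 0.05 in limma, adjusted over all genes tested. The p-values measure the spread between these libraries, which for the edited pools may be technical. In bulk samples, fewer cells of a type and less RNA per cell cannot be told apart. Genes near the lowest value have differences that depend on the offset.

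Promoter sequence was examined for the letters to which SREBPs are known to bind. Of the 32 genes, 25 had a promoter in the RefSeq table (mouse build GRCm38.p6), taken as the 250 bases before the annotated start. The classical sterol regulatory element of the TCACNCCAC form was searched on both strands and was present in 1 of 25 (4.0%), against 1.22% of 27025 genes. The CCAAT box, whose binding factor NF-Y works together with SREBPs, was present as CCAAT or ATTGG in 19 of 25 (76.0%), against 37.5% of the 27025 genes. A match to these letters is a description of the sequence and not a shown binding site. The 4 promoters printed are those of an early enzyme (Hmgcs1, the 1 gene of the 25 with the sterol element), a mevalonate enzyme that passed in most comparisons (Idi1), a feedback regulator (Insig1) and the fatty acid synthase (Fasn). They lie at chr13:119690101-119690350 on the plus strand (Hmgcs1), chr13:8885356-8885605 on the plus strand (Idi1), chr5:28071162-28071411 on the plus strand (Insig1) and chr11:120824548-120824797 on the minus strand (Fasn), and are written 5′ to 3′ with the matched letters in capitals.
Hmgcs1: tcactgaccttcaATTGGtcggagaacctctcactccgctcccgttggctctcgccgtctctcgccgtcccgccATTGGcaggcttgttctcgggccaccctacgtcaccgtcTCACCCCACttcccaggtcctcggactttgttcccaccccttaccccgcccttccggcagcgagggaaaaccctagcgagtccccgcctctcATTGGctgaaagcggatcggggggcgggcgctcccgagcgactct
Idi1: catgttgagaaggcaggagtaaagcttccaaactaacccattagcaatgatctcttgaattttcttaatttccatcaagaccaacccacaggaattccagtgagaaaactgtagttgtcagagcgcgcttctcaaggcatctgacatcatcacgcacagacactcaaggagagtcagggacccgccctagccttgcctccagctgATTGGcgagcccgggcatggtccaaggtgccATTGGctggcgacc
Insig1: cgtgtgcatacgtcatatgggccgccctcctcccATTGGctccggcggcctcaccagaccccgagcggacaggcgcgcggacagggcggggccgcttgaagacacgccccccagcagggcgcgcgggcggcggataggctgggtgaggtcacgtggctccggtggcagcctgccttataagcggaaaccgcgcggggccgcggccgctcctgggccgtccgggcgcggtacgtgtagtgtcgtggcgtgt
Fasn: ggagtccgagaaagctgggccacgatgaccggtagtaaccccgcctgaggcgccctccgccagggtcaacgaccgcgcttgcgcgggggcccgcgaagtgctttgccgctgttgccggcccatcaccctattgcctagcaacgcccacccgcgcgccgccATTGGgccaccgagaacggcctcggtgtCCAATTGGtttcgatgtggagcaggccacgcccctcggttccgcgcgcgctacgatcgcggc
The Hmgcs1 promoter held the sterol element 137 to 129 bases before the start, with 3 CCAAT boxes around it at 237 to 233, 176 to 172 and 45 to 41 bases. The 2 CCAAT boxes of Idi1 lay at 45 to 41 and 14 to 10 bases, and the single one of Insig1 at 216 to 212. In Fasn, 2 of the 3 boxes overlapped, on opposite strands, at 62 to 58 and 59 to 55 bases.

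The mean over the sterol genes and the mean over the fatty acid genes gave the broad picture across groups. In the marrow set the sterol mean was 5.08 ± 0.13 in bone marrow progenitors (SD, n = 3), 4.90 ± 0.04 in monocytes (SD, n = 3), 6.52 ± 0.80 in ER-Hoxb8 progenitors (SD, n = 3) and 6.26 ± 0.08 at day 4 (SD, n = 3). In the set with the brain cells it was 6.13 ± 0.46 in BMD macrophages (SD, n = 3) and 5.65 ± 0.70 in ER-Hoxb8 macrophages (SD, n = 3), against 3.69 ± 0.29 in BMD MLCs (SD, n = 6), 3.62 ± 0.66 in ER-Hoxb8 MLCs (SD, n = 6) and 4.09 ± 0.66 in microglia (SD, n = 9). The fatty acid mean was 4.24 ± 0.30 and 3.94 ± 0.49 in the 2 macrophage groups (SD, n = 3 each), and 2.45 ± 0.60, 2.09 ± 0.74 and 2.33 ± 0.70 in BMD MLCs, ER-Hoxb8 MLCs and microglia (SD, n = 6, 6 and 9). Every macrophage library lay above every MLC library of its own lineage for both means. The 2 macrophage groups overlapped each other, and so did the 3 brain groups. Progenitors of the edited lines had sterol means of 6.40 ± 0.24 for NTC, 6.39 ± 0.14 for sgRNA 1 and, on their own scale, 6.50 ± 0.02 for sgRNA 2 (SD, n = 3 each), and their macrophages 4.32 ± 0.05 (SD, n = 2), 4.55 ± 0.01 (SD, n = 3) and 4.91 ± 0.11 (SD, n = 5).

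**Figure D1:**
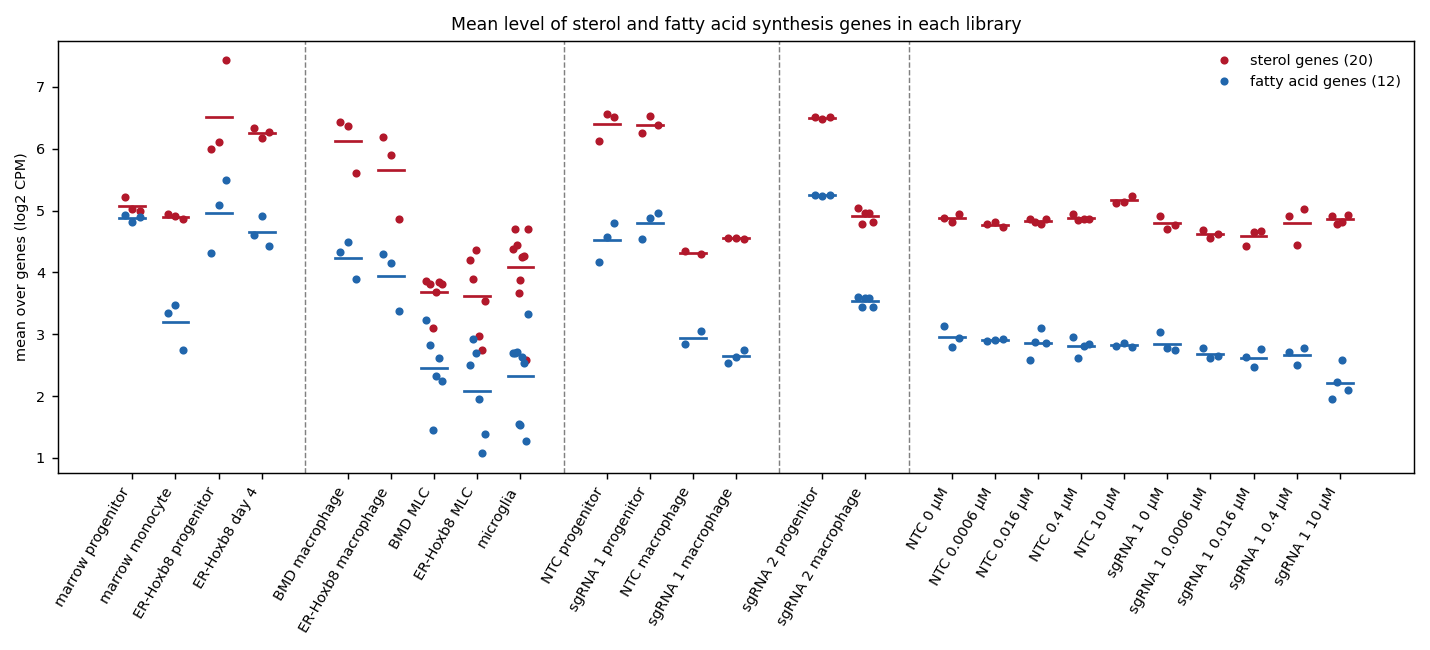
Mean log2 CPM of the 20 sterol genes and of the 12 fatty acid genes in each library, by group, with bars at group means and dashed lines between separately normalized sets (NTC macrophage replicate 2 is not drawn). Within their sets, macrophages lie above the MLCs (sterol means 6.13 and 5.65 against 3.69 and 3.62), and edited progenitors lie above their macrophages (6.40 against 4.32 for NTC).

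The first comparison asked how immortalized progenitors differ from those of fresh marrow. In ER-Hoxb8 progenitors 15 of the 32 genes were higher than in bone marrow progenitors and 1 was lower, while 11.3% of all genes were higher. The genes that were higher lay mainly in the sterol branch (12 of 20), with 5 of the 7 mevalonate genes, 5 of the 9 from squalene to cholesterol and 2 of the 5 regulators and transporters, against 3 of 12 in the fatty acid branch. The median difference over the 32 genes was 1.17, against -0.08 over all genes.

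Mvd, which decarboxylates mevalonate diphosphate, was at 3.18, 3.34 and 3.43 in bone marrow progenitors and at 6.89, 5.68 and 7.18 in ER-Hoxb8 progenitors, a difference of 3.27 (SE 0.39, adjusted p = 9.87e-05). Hmgcs1, which makes HMG-CoA, was at 5.36, 5.51 and 5.46 against 7.95, 7.17 and 8.97, a difference of 2.59 (SE 0.37, adjusted p = 0.00038). For both genes each ER-Hoxb8 line lay above each marrow sample, and the spread between lines was wider than that between marrow samples. Fdft1, which forms squalene, was at 4.15, 3.98 and 4.02 against 5.60, 6.16 and 6.76, a difference of 2.12 (SE 0.29, adjusted p = 0.000249). Insig1, the sterol-sensing brake on SREBP release and itself an SREBP target, was at 2.15, 2.68 and 2.11 against 3.73, 4.55 and 5.00, a difference of 2.11 (SE 0.34, adjusted p = 0.00079). The lowest ER-Hoxb8 line was above the highest marrow sample for each of them. Sqle, which oxidises squalene in a rate-limiting step, was higher by 2.08 (SE 0.38, adjusted p = 0.00184), and Lss, which closes the sterol rings, by 2.48 (SE 0.53, adjusted p = 0.00484).

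In the fatty acid branch the 2 progenitor groups overlapped in their means. Scd2, a desaturase that makes monounsaturated fatty acids, was at 5.30, 5.01 and 4.71 in marrow and at 7.37, 6.93 and 7.56 in ER-Hoxb8 progenitors, a difference of 2.28 (SE 0.35, adjusted p = 0.000596), without overlap. Acss2, which makes acetyl-CoA from acetate, was at 3.70, 2.64 and 3.24 in marrow against 0.37, 1.79 and -0.04, and was lower by 2.49 (log2 difference -2.49, SE 0.52, adjusted p = 0.00443). It was the only 1 of the 32 genes that was lower. Fads2, a polyunsaturated fatty acid desaturase, was at 7.43, 6.12 and 6.49 in marrow and at -1.65, 4.51 and 4.54 in the lines, which lay lower with a wide spread, and did not pass (difference -4.21, SE 1.48, adjusted p = 0.0568). The calls for Mvk, Idi1, Tm7sf2, Acly and Elovl5 were lost under at least 1 alternative setting.

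The ER-Hoxb8 lines were not alike in their cell markers. Summed CPM of the 5 progenitor markers ranged from 28.8 to 2770.4 across the lines, against 6715.1 to 15640.3 in marrow progenitors, and the sum of the 6 macrophage markers ranged from 433.7 to 4882.3 against 129.2 to 180.4. The third line had the highest mean over the 32 genes (6.71, against 5.37 and 5.73 in the others). Without it, 17 genes passed. Of the 6 proliferation markers, 4 were lower in the ER-Hoxb8 progenitors and none was higher. The 4 erythroid markers summed to 1398.2 to 3138.5 CPM in marrow progenitors and 1.5 to 3.2 in the lines, and the 4 neutrophil markers to 242.1 to 8247.4 and 7.0 to 9.2. The part of these cells in the result was not tested, and immortalization, culture and Cas9 genotype cannot be told apart.

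Among other genes of the pathway that are not among the 32, 6 of 9 sterol genes were higher and none was lower, and 4 of 7 fatty acid genes were higher and none was lower, while 11.3% of all genes were higher. From day 0 to day 4 none of the 32 genes passed in limma, which called 0 of 12056 genes (0% of all genes) at this spread. At an unadjusted p below 0.05 there were 1129 genes, 2 of them among the 32, and sample weights also left 0 of the 32. Without the second ER-Hoxb8 line at day 0, 4 of the 32 passed.

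Monocytes were compared with the marrow progenitors they arise from. Of the 32 genes 1 was higher and 5 were lower, 6 in all, while 13.8% of all genes passed in either direction, and the fatty acid mean was lower by 1.69 on the log2 scale (difference -1.69, pooled SD 0.28) against -0.17 (pooled SD 0.09) for the sterol mean. Scd1, Me1, Fads2 and Fads1 made up most of the lower fatty acid mean. Acly (8.66 against 8.45) and Elovl5 (6.58 against 6.46) had slightly higher means in monocytes. Scd1, the main liver and adipose stearoyl-CoA desaturase, was at 3.35, 3.99 and 4.02 in progenitors and at -1.71, -1.71 and -3.33 in monocytes, a difference of -6.04 (SE 0.96, adjusted p = 0.00298). Scd2 was at 3.70, 3.56 and 3.77 in monocytes, below each progenitor sample, a difference of -1.33 (SE 0.35, adjusted p = 0.0287). Mvd went the other way, at 5.24, 5.14 and 5.52 in monocytes, above all progenitor samples by 1.99 on average (SE 0.39, adjusted p = 0.00789). Of the 6 calls, those of Mvd and Scd1 passed in every setting other than a fold limit. The number passing was 3 without bone marrow progenitor replicate 1, 2 or 3 and 2 without monocyte replicate 3, and 14 passed with sample weights. Erythroid markers summed to 68.5 to 250.5 CPM in monocytes against 1398.2 to 3138.5 in progenitors, and their part was not tested.

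The next comparisons asked how cells that had lived in the brain differ from macrophages in a dish. BMD MLCs and BMD macrophages are both labelled wild type, but the study describes the marrow cells put into brains as GFP-expressing, from a transgenic line on the FVB background. ER-Hoxb8 MLCs are labelled wild type and the ER-Hoxb8 macrophages Cas9 heterozygous, so donors were not matched in either lineage. In BMD MLCs 18 of the 32 genes were lower than in BMD macrophages and none was higher, while 13.9% of all genes were lower. In ER-Hoxb8 MLCs 13 of the 32 were lower than in ER-Hoxb8 macrophages and none was higher, while 18.2% of all genes were lower. The median difference over the 32 genes was -2.30 in BMD cells (all genes -0.01) and -1.93 in ER-Hoxb8 cells (all genes -0.15). By role, the lower genes of BMD MLCs were 4 of 7 mevalonate genes, 7 of 9 from squalene to cholesterol, 4 of 5 regulators and transporters and 2 of 3 that supply acetyl-CoA and NADPH, but none of the 2 synthesis and 2 elongation genes.

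Hmgcs1 was at 7.84, 7.91 and 6.42 in BMD macrophages and between 4.56 and 5.19 (median 4.94) in BMD MLCs, a difference of -2.47 (SE 0.34, adjusted p = 6.1e-06). The ER-Hoxb8 macrophages had 7.20, 7.17 and 6.65 and their MLCs 3.76 to 5.49 (median 5.02), a difference of -2.23 (SE 0.34, adjusted p = 1.64e-05). No MLC library reached any macrophage library. Sqle showed the same separation with a larger gap, at 7.93, 7.85 and 7.21 in BMD macrophages and between 2.10 and 4.30 (median 3.27) in BMD MLCs, a difference of -4.43 (SE 0.63, adjusted p = 1.22e-05). In ER-Hoxb8 macrophages Sqle was at 8.41, 7.94 and 5.70 and in their MLCs between 1.22 and 4.64 (median 2.52), a difference of -4.42 (SE 0.63, adjusted p = 8.66e-06).

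Idi1, which isomerises the 5-carbon building block of sterols, was at 7.01, 7.03 and 6.39 in BMD macrophages and between 3.66 and 4.40 (median 3.86) in BMD MLCs, a difference of -2.91 (SE 0.42, adjusted p = 1.51e-05). ER-Hoxb8 macrophages had 6.73, 6.27 and 5.25 and their MLCs 2.58 to 5.23 (median 4.38), a difference of -2.07 (SE 0.42, adjusted p = 0.000602), the highest MLC lying just under the lowest macrophage. Fdps, which joins these units to farnesyl diphosphate, was at 8.30, 7.97 and 7.10 in BMD macrophages and between 4.17 and 5.03 (median 4.62) in BMD MLCs, a difference of -3.16 (SE 0.37, adjusted p = 8.3e-07). In ER-Hoxb8 cells the Fdps groups overlapped, at 7.86, 7.42 and 5.65 against 5.01 to 6.28 (median 5.50), with a difference of -1.44 (SE 0.37, adjusted p = 0.00448).

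Srebf2, the transcription factor itself, was at 7.44, 7.74 and 8.01 in BMD macrophages and between 2.02 and 3.32 (median 2.64) in BMD MLCs, a difference of -5.11 (SE 1.06, adjusted p = 0.000765). ER-Hoxb8 macrophages had 7.67, 7.49 and 4.82 and their MLCs -3.62 to 3.70 (median 2.88), a difference of -4.79 (SE 1.06, adjusted p = 0.00119). All MLCs lay below all macrophages, and 1 ER-Hoxb8 MLC library was at the lowest value of the set. Stard4, a carrier of cholesterol between membranes, was lower by 2.87 on the log2 scale in BMD MLCs (difference -2.87, SE 0.47, adjusted p = 6.08e-05) and by 1.58 in ER-Hoxb8 MLCs (difference -1.58, SE 0.47, adjusted p = 0.0108), where the groups overlapped. Insig1 was lower in BMD MLCs with overlap, at a difference of -1.79 (SE 0.58, adjusted p = 0.0214). That call was lost without BMD macrophage replicate 1 or 2, and in ER-Hoxb8 cells the calls of Fdps and Stard4 were lost without ER-Hoxb8 macrophage replicate 1.

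In the fatty acid branch Acly, which makes cytosolic acetyl-CoA from citrate for both branches, was at 8.41, 8.37 and 8.46 in BMD macrophages and between 5.71 and 6.73 (median 6.17) in BMD MLCs, a difference of -2.20 (SE 0.46, adjusted p = 0.000765). ER-Hoxb8 macrophages had 8.88, 8.61 and 7.49 against MLCs at 5.29 to 6.92 (median 6.30), a difference of -2.14 (SE 0.46, adjusted p = 0.000875). Neither pair of groups overlapped. Fads2 and Me1, which supplies NADPH, passed in BMD cells, Fads2 by 5.12 (difference -5.12, SE 1.35, adjusted p = 0.00563) and Me1 by 4.37 (difference -4.37, SE 0.98, adjusted p = 0.00157), with 1 of the 6 BMD MLC libraries at the lowest value for Fads2 and 3 of 6 for Me1. With the offset taken off, as in the filter, Me1 was above 1 CPM in no BMD MLC library. It was above 1 CPM in every macrophage library of the set but ER-Hoxb8 replicate 1 (log2 CPM 0.05), and in ER-Hoxb8 MLC replicate 5 (log2 CPM 1.42). It thus met the filter mainly through the macrophages, and the size of its difference depends on the offset. Elovl5, an elongase of polyunsaturated fatty acids, was lower in ER-Hoxb8 MLCs by 1.39 (difference -1.39, SE 0.32, adjusted p = 0.00154). Fasn had wide spreads among MLCs and among macrophages. It was at 5.35, 5.50 and 2.45 in BMD and at 4.98, 4.58 and 1.99 in ER-Hoxb8 macrophages. It did not pass in BMD cells (difference -2.85, SE 1.58, adjusted p = 0.173) or in ER-Hoxb8 cells (difference -3.11, SE 1.58, adjusted p = 0.126). Scd2 and Ebp, the sterol isomerase, had differences of 0.68 (SE 0.38) and 0.30 (SE 0.26) in BMD cells, and neither passed.

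**Figure D2:**
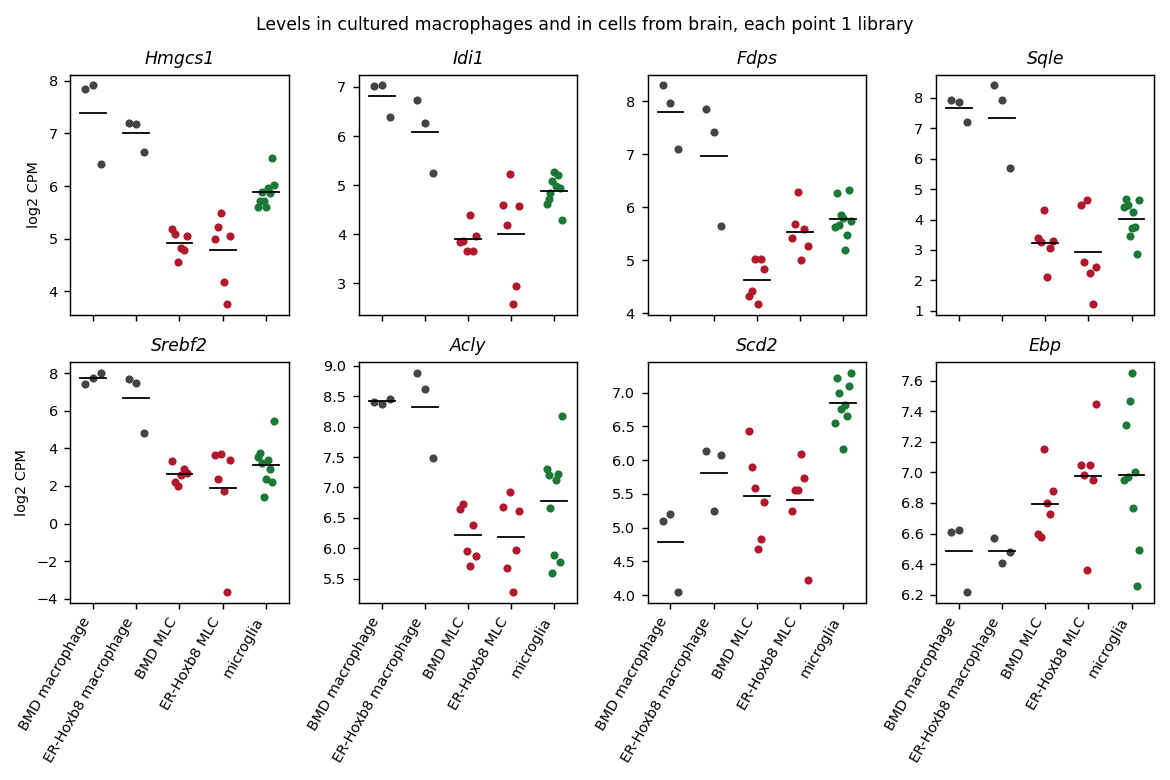
Log2 CPM of 8 genes in each library of the macrophage and brain set, with bars at the group means. Hmgcs1, Idi1, Sqle and Srebf2 lie lower in every MLC library than in every macrophage library of the same kind (BMD or ER-Hoxb8), whereas Ebp lies between 6.22 and 7.65 in all groups.

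The difference between the lineages was tested directly. The change from macrophage to MLC differed between ER-Hoxb8 and BMD cells for none of the 32 genes in limma, with 3.28% of all genes passing, 3 of the 32 below an unadjusted p of 0.05, and 3 passing with sample weights. ER-Hoxb8 and BMD macrophages differed for none of the 32 genes, with 1.51% of all genes passing, 2 of the 32 below an unadjusted p of 0.05 and 7 passing with sample weights. Both shares of all genes belong to the main adjusted test. The unadjusted and weighted counts have no such share beside them and cannot be set against all genes here. Fads2 stood at 4.66, 4.23 and 4.42 in BMD macrophages against 1.02, 2.35 and -2.71 in ER-Hoxb8 macrophages, without overlap, and did not pass (difference -4.22, SE 1.20, adjusted p = 0.201).

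These counts depended on the libraries used. Without BMD macrophage replicate 2, 11 of the 32 genes passed in BMD cells. BMD macrophage replicate 3, with the wBM label, had a sterol mean of 5.60 against 6.43 and 6.37 in the others. Its mean log2 CPM of the proliferation markers was 8.08 against 6.51 and 5.11. Without ER-Hoxb8 macrophage replicate 1 or 2, 7 or 8 passed in ER-Hoxb8 cells. The ER-Hoxb8 count was 8 with the GFPHox libraries alone, where the difference of Hsd17b7 was 0 (adjusted p = 0.999), and 20 with sample weights. The sorted cells also carried transcripts of other cell types. The 4 neutrophil markers summed to 2644.5 to 22825.6 CPM in BMD MLCs and 131.9 to 21501.8 in ER-Hoxb8 MLCs, against 0.6 to 15.4 in both macrophage groups, and the 4 erythroid markers to 14.7 to 566.8 and 148.9 to 4689.6, against 0.3 to 5.8. The 4 neuron markers summed to at most 13.1 CPM in the MLCs, and the 5 oligodendrocyte markers to 41.3 to 127.1 in BMD MLCs and 100.8 to 262.0 in ER-Hoxb8 MLCs, against 166.0 to 179.4 and 29.2 to 123.1 in the macrophages of each origin. Microglia held 255.3 to 3408.6 CPM of the neutrophil markers. The 5 microglia markers summed to 45342.7 to 74001.8 in microglia, 5033.8 to 16736.2 in BMD MLCs, 827.3 to 9620.3 in ER-Hoxb8 MLCs and 240.0 to 875.9 in the macrophages. Of the 6 proliferation markers, 4 were lower in BMD MLCs than in their macrophages and none passed in ER-Hoxb8 cells. Of 8 interferon-stimulated genes, 3 were higher in BMD MLCs and 8 in ER-Hoxb8 MLCs. The part of these in the lower sterol genes was not tested, and brain residence, sorting and donor genotype cannot be told apart.

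Other genes of the pathway were counted the same way. Of 9 further sterol genes, 5 were lower and 1 higher in BMD MLCs, and 7 were lower in ER-Hoxb8 MLCs. Of all genes, 13.9% were lower in BMD MLCs and 18.2% in ER-Hoxb8 MLCs. LXR is the receptor that senses oxysterols and turns on cholesterol export. Of a list of 6 genes (the LXR targets Abca1, Abcg1, Mylip and Lpcat3, LXR alpha itself, Nr1h3, and the oxysterol-making enzyme Ch25h) 3 were higher and 1 lower in BMD MLCs (16.8% of all genes were higher), and 3 were higher and 2 lower in ER-Hoxb8 MLCs (16.6%). Abca1, a cholesterol exporter, was higher by 5.90 (SE 0.47, adjusted p = 1.98e-09) in BMD MLCs and by 3.56 in ER-Hoxb8 MLCs.

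MLCs were then compared with microglia. Against microglia, 6 of the 32 genes passed in BMD MLCs, 5 of them lower, while 20.5% of all genes passed, and 6 of the 32 passed in ER-Hoxb8 MLCs, 5 of them lower, while 33.9% of all genes passed. In both, the share of the 32 genes was under the share of all genes. Scd2 was between 6.17 and 7.29 (median 6.82) in microglia, between 4.68 and 6.43 (median 5.49) in BMD MLCs and between 4.22 and 6.09 (median 5.56) in ER-Hoxb8 MLCs. It was lower than in microglia by 1.37 in BMD MLCs (difference -1.37, SE 0.29, adjusted p = 0.000794) and by 1.43 in ER-Hoxb8 MLCs (difference -1.43, SE 0.29, adjusted p = 0.00027), and ER-Hoxb8 MLCs did not overlap with microglia. Hmgcs1 was between 5.60 and 6.54 (median 5.87) in microglia, above every MLC library of either origin, with differences of -0.96 (SE 0.25, adjusted p = 0.00607) in BMD MLCs and -1.10 (SE 0.25, adjusted p = 0.00111) in ER-Hoxb8 MLCs. Fdps was lower in BMD MLCs by 1.14 (difference -1.14, SE 0.28, adjusted p = 0.00364). Pmvk, the phosphomevalonate kinase, was higher in ER-Hoxb8 MLCs by 1.09 (SE 0.25, adjusted p = 0.00101), and Acss2 was higher in BMD MLCs by 1.67 (SE 0.54, adjusted p = 0.0286). The Hmgcs1 call in ER-Hoxb8 MLCs was lost with the GFPHox libraries alone, and that of Acss2 in BMD MLCs under several settings.

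The calls of Hsd17b7 and Cyp51, which act on sterol rings, rested on 1 part of the ER-Hoxb8 MLCs. Hsd17b7 was at 4.45, 4.20 and 4.31 in the libraries with the GFPHox label and at -2.52, -2.21 and 0.57 in those with the WTHox label, against 2.97 to 4.75 (median 3.81) in microglia. With the GFPHox libraries alone its difference from microglia was 0.50 (adjusted p = 0.425) rather than -2.36 (SE 0.83, adjusted p = 0.0288). Cyp51 was at 5.40, 5.40 and 4.87 against 1.20, -1.15 and 3.30, and its call (difference -2.34, SE 0.66, adjusted p = 0.00734) was lost with the GFPHox libraries alone. Between the 2 MLC kinds 4 of the 32 genes passed, while 15.2% of all genes did. They were Nsdhl (0.90 higher in ER-Hoxb8 MLCs, SE 0.25, adjusted p = 0.0168), Fdps (0.91, SE 0.31, adjusted p = 0.0434), Pmvk (0.87, SE 0.27, adjusted p = 0.0282) and Elovl5 (-0.79, SE 0.26, adjusted p = 0.0376), and each of the 4 calls was lost under at least 1 setting. The 6 proliferation markers were all higher in ER-Hoxb8 MLCs than in microglia. The mean log2 CPM of the 8 interferon-stimulated genes was 6.27 to 8.33 in ER-Hoxb8 MLCs, 1.58 to 3.29 in BMD MLCs and -0.31 to 1.97 in microglia, and the 3 endothelial markers summed to 15.6 to 57.6, 0.2 to 6.3 and 0.2 to 4.1 CPM. The part of these, and of the neutrophil transcripts given above, was not tested. Against microglia, 3 genes passed without BMD MLC replicate 3 and 10 without microglia replicate 8 in the 2 comparisons respectively. Between the MLC kinds 2 passed without BMD MLC replicate 1, 2, 4, 5 or 6 or ER-Hoxb8 MLC replicate 3, and 1 without ER-Hoxb8 MLC replicate 5.

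The edited lines allowed the step from progenitor to macrophage to be tested for each labelled guide. The NTC progenitors had the column label NTC2Prog and the NTC macrophages tested had NTC. The NTC macrophage left out had NTC2, so the labels do not show that the NTC cells compared were of the same line. Adar transcript did not check the edit, since it was at 4.36, 4.23 and 4.24 in sgRNA 1 progenitors and at 4.20, 3.42 and 4.28 in NTC progenitors, and in macrophages lay higher with sgRNA 1 (6.96, 7.15 and 7.01) than with NTC (5.73 and 5.67). It was at 6.99 to 7.03 in sgRNA 2 macrophages on their own scale. Lines are therefore named by their labelled guide. In NTC cells 24 of 31 genes tested (all but Fads2 were tested) were lower in macrophages and none was higher, while 38.7% of all genes were lower. In sgRNA 1 cells 26 of 31 were lower and 1 was higher, with 37.1% of all genes lower, and in sgRNA 2 cells 28 of 31 were lower and 2 higher, with 41.6% of all genes lower. The median difference over these genes was -1.60, -1.78 and -1.38 in the 3 lines, against -0.08, -0.06 and -0.03 over all genes. In NTC cells the lower genes took in 7 of 7 mevalonate genes, 8 of 9 from squalene to cholesterol, both synthesis genes and both elongases, but 2 of 5 regulators and transporters. All 24 NTC calls and all 27 sgRNA 1 calls passed in every setting other than a fold limit.

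Idi1 was at 8.49, 8.97 and 8.69 in NTC progenitors and at 4.42 and 4.16 in NTC macrophages, a difference of -4.42 (SE 0.19, adjusted p = 3.25e-09). NTC macrophage replicate 2, on its own scale, read 3.88. Fdps was at 8.96, 9.69 and 9.41 against 5.02 and 4.92, a difference of -4.38 (SE 0.20, adjusted p = 3.9e-09). For both genes every progenitor lay far above every macrophage. Stard4 was at 7.91, 8.09 and 7.82 against 4.11 and 4.02, a difference of -3.88 (SE 0.15, adjusted p = 1.09e-09), and Acat2, which starts the pathway from acetyl-CoA, at 7.60, 8.27 and 7.78 against 4.20 and 3.94, a difference of -3.81 (SE 0.19, adjusted p = 8.75e-09).

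Of the 11 fatty acid genes tested, 7 fell in the same step. Fasn was at 5.50, 5.37 and 6.06 in NTC progenitors and at 2.04 and 2.11 in macrophages, a difference of -3.57 (SE 0.26, adjusted p = 2.07e-07). Elovl6, an elongase of saturated fatty acids, was at 3.26, 4.65 and 4.28 against 0.61 and 0.44, a difference of -3.54 (SE 0.41, adjusted p = 1.03e-05). The macrophages were close to each other and below all progenitors in both. Scd1 was at 2.54, 4.39 and 4.14 against 0.62 and 0.64 in NTC cells, a difference of -3.06 (SE 0.63, adjusted p = 0.00102). In NTC cells Ebp was at 6.23, 6.57 and 6.33 in progenitors and 6.24 and 6.05 in macrophages, and did not pass (difference -0.23, SE 0.14, adjusted p = 0.152). In sgRNA 2 cells it fell, from 6.08, 5.95 and 6.06 to between 5.55 and 5.78, by a small amount (difference -0.33, SE 0.06, adjusted p = 0.000803).

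The sgRNA 2 line, analysed on its own scale, also had lower levels in macrophages. Idi1 was at 8.33, 8.22 and 8.25 in progenitors and at 5.29, 4.85, 5.14, 5.19 and 4.92 in macrophages, a difference of -3.19 (SE 0.10, adjusted p = 4.38e-10). Scd2 was at 8.57, 8.83 and 9.04 against 4.39, 3.83, 4.25, 4.42 and 3.97, a difference of -4.64 (SE 0.15, adjusted p = 7.26e-10). In both genes the macrophages were far below the progenitors. Acss2 rose in this line, from 0.32, 0.48 and 1.28 to 2.45, 3.44, 2.66, 2.90 and 2.54 (difference 2.11, SE 0.28, adjusted p = 5.12e-05), and rose in sgRNA 1 cells too (difference 1.67, SE 0.38, adjusted p = 0.00192). The rise of Me1 in sgRNA 2 cells (difference 0.59, SE 0.20, adjusted p = 0.0181) came with overlapping groups and was lost in some settings.

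Outside the 32 genes, 6 of 9 further sterol genes were lower in NTC macrophages and 3 were higher, while 38.7% of all genes were lower and 33.1% higher. The share that was higher was near that of all genes. Insig2, a sterol brake that SREBPs do not drive, was higher by 1.27, and the cholesterol exporters Abca1 and Abcg1 were higher by 8.26 and 5.30. These exporters were picked from the list of 6 LXR and oxysterol genes. The mean log2 CPM of that list was 1.96, 1.62 and 1.81 in NTC progenitors and 4.70 and 4.77 in NTC macrophages. All 6 proliferation markers were lower in macrophages in each line, their sum going from 1729.8 to 1983.8 CPM in NTC progenitors to 179.3 to 183.9 in macrophages, and from 2077.4 to 2215.9 to 516.4 to 565.8 in sgRNA 2 cells. Transcripts of other cell types moved with the step too. The 4 erythroid markers summed to 376.6 to 610.5 CPM in NTC and 489.3 to 610.2 in sgRNA 1 progenitors against 0.2 to 0.7 in the macrophages tested, and the 4 neuron markers to 5.7 to 16.7 and 8.3 to 15.9 against at most 0.1. NTC macrophage replicate 2, which was left out of the tests, had 259.5 CPM of the erythroid and 3.2 of the neuron markers on its own scale. In the sgRNA 2 line the erythroid sums were 0.7 to 1.0 in progenitors and 0.3 to 0.8 in macrophages and the neuron sums at most 0.3. The part of cell division and of other cell types in the result was not tested.

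**Figure D3:**
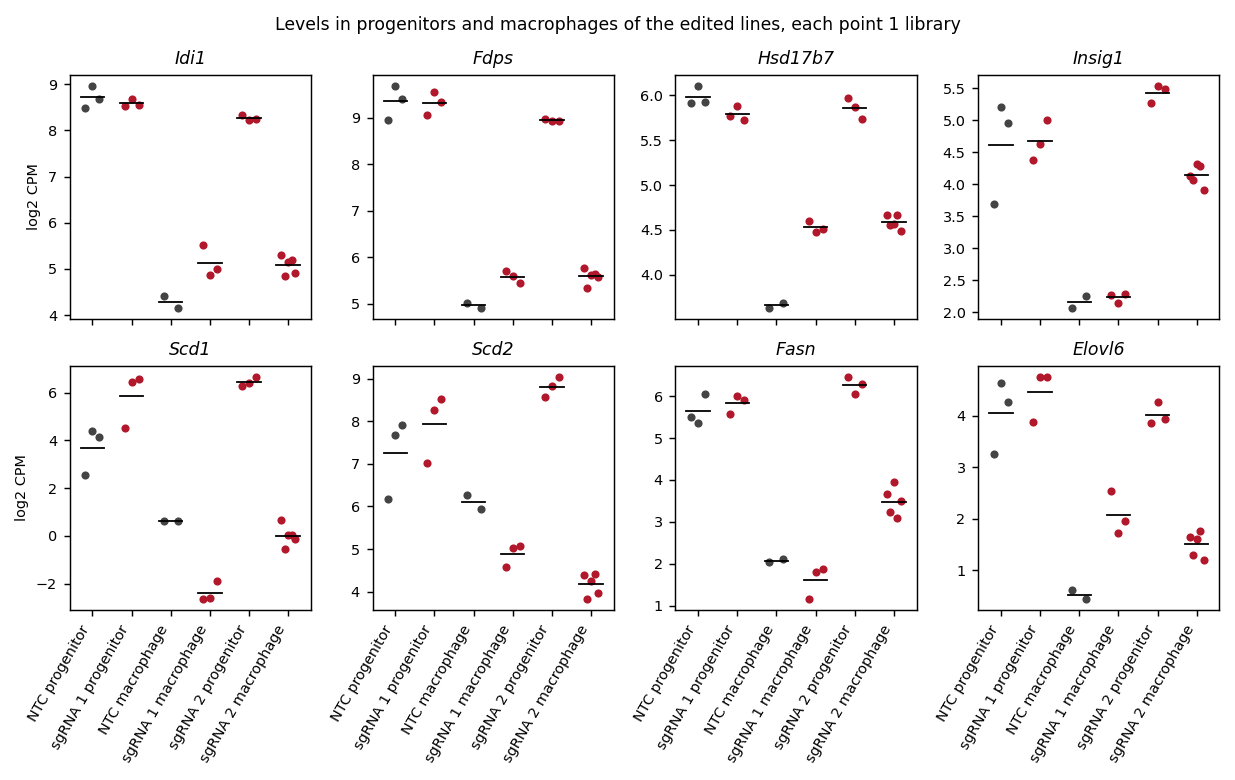
Log2 CPM of 8 genes in progenitors and macrophages of the NTC, sgRNA 1 and sgRNA 2 lines, one point per library with bars at group means (the sgRNA 2 line was normalized apart from the others, and NTC macrophage replicate 2 has its own scale). Idi1, Fdps and Fasn lie lower in macrophages with each guide. Scd2 does so with sgRNA 1 and sgRNA 2, but overlaps with NTC (6.17, 7.68 and 7.91 in progenitors, 6.27 and 5.95 in macrophages). Scd1 in sgRNA 1 macrophages lies at -2.64 to -1.90, under the NTC macrophages at 0.62 and 0.64.

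The effect of the Adar1 guide was then tested at each stage. In progenitors none of 31 genes passed in limma between sgRNA 1 and NTC, with 0.936% of all genes passing and 2 of the 31 below an unadjusted p of 0.05, and 1 passed without sgRNA 1 progenitor replicate 1. In macrophages 5 genes were higher and 1 lower with sgRNA 1, 6 of 31, while 21.8% of all genes passed. The share of these genes was close to that of all genes. Hsd17b7 was at 3.63 and 3.68 in NTC macrophages and at 4.60, 4.47 and 4.51 in sgRNA 1 macrophages, a difference of 0.87 (SE 0.11, adjusted p = 0.000242), and was the 1 call that passed in every setting other than a fold limit. Idi1 was at 4.42 and 4.16 against 5.52, 4.86 and 4.99, a difference of 0.83 (SE 0.19, adjusted p = 0.0103). The groups did not overlap for either gene.

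Sqle (0.50 higher, SE 0.12, adjusted p = 0.0133), Fdps (0.61, SE 0.20, adjusted p = 0.0457) and Elovl6 (1.55, SE 0.41, adjusted p = 0.0186) were the other genes that were higher. Scd1 was at 0.62 and 0.64 in NTC macrophages and at -2.64, -2.62 and -1.90 in sgRNA 1 macrophages, a difference of -3.02 (SE 0.63, adjusted p = 0.00573), at levels near the lowest value. In progenitors it lay at 4.54, 6.43 and 6.56 with sgRNA 1 and at 2.54, 4.39 and 4.14 with NTC, which did not pass (difference 2.15, SE 0.56, adjusted p = 0.171). The same-numbered sgRNA 1 library was the higher in each of the 3 pairs, and with the replicate block too 0 of the 31 genes passed in progenitors. Without NTC macrophage replicate 1 or 3, 3 genes passed, with a single NTC macrophage library left that is assumed to vary like the other groups. All 8 interferon-stimulated genes and 5 of 6 proliferation markers were higher with sgRNA 1. Endothelial markers summed to 81.2 to 120.2 CPM with sgRNA 1 and 28.6 to 29.8 with NTC, and microglia markers to 586.8 to 610.5 and 255.5 to 418.9. The macrophage markers summed to 6542.0 to 7457.4 and 9612.8 to 10773.2. The part of all these in the result was not tested.

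The step to the macrophage differed between sgRNA 1 and NTC cells for 4 of 31 genes, with 13.6% of all genes passing. Scd1 fell further in sgRNA 1 cells, by 8.23 (difference -8.23, SE 0.56, adjusted p = 1.18e-07) against -3.06 in NTC cells, a difference in the step of -5.17 (SE 0.85, adjusted p = 0.00189). Hsd17b7 fell less, with a step of -1.27 against -2.33 and a difference of 1.07 (SE 0.15, adjusted p = 0.000752). Idi1 (0.96, SE 0.26, adjusted p = 0.0319) and Sqle (0.65, SE 0.16, adjusted p = 0.025) also fell less. Without sgRNA 1 progenitor replicate 3 the number passing was 2, and without NTC progenitor replicate 1 it was 7.

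In the baricitinib series the untreated macrophages with the same labelled guides gave another picture. At 0 µM 1 gene was higher and 7 were lower in sgRNA 1 than in NTC macrophages, 8 of the 30 tested (Scd1 and Fads2 were not tested), while 25.3% of all genes passed. Idi1 was at 5.72, 5.79 and 5.87 in NTC and at 5.30, 5.07 and 5.29 in sgRNA 1 macrophages, a difference of -0.57 (SE 0.16, adjusted p = 0.00962), and Fdps and Sqle also were lower, by 0.45 (difference -0.45, adjusted p = 0.0219) and 0.77 (difference -0.77, adjusted p = 0.0185). For these 3 genes the direction was opposite to that in the first macrophage experiment, and each of the 3 calls at 0 µM was lost under at least 1 setting. Tm7sf2, a sterol reductase, was at 4.85, 4.70 and 4.64 in NTC and at 4.10, 4.36 and 4.06 in sgRNA 1 macrophages, without overlap (difference -0.56, SE 0.14, adjusted p = 0.00371), and with Me1 was the call that passed in every setting other than a fold limit. In the first experiment Tm7sf2 also lay the other way, at 4.32, 4.26 and 4.30 with sgRNA 1 against 3.73 and 3.72 with NTC, and did not pass. Me1 overlapped there, at -0.03, 0.25 and 0.46 against -0.12 and 0.13. The experiments were normalized apart, and the difference between them was not tested. At 0 µM 5 of 6 proliferation markers were lower with sgRNA 1, whereas 5 of 6 were higher in the first experiment, and their part was not tested.

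Me1 was lower with sgRNA 1 at each of the 5 doses. At 0 µM it was at 1.44, 1.21 and 1.58 in NTC and at -0.03, 0.62 and 0.02 in sgRNA 1 macrophages, a difference of -1.20 (SE 0.34, adjusted p = 0.0097), and the groups did not overlap. The difference was -1.22 at 0.0006 µM (adjusted p = 0.00749), -1.39 at 0.016 µM (adjusted p = 0.00118), -1.57 at 0.4 µM (adjusted p = 0.00135) and -1.13 at 10 µM (adjusted p = 0.00477), and its call at 0.0006 µM was lost under at least 1 setting. At 0.0006 µM 5 of 30 genes passed (29% of all genes), at 0.016 µM 6 (32.2%), at 0.4 µM 1 (13.5%) and at 10 µM 14 (45.3%), shares of the 30 genes that were near or under those of all genes. Nsdhl, a sterol dehydrogenase, was higher with sgRNA 1 at the lowest 3 doses, by 0.33, 0.39 and 0.46, and Stard4 lower by 0.54, 0.81 and 0.78 (differences -0.54, -0.81 and -0.78).

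In sgRNA 1 macrophages at 0.4 µM the library labelled replicate 2 stood apart, with Adar at 7.38 against 4.12 and 4.21. The mean log2 CPM of 8 interferon-stimulated genes was 10.36 in it against -0.01 and 2.12 in the others, above the untreated sgRNA 1 libraries at 6.78 to 6.98, and that of the 6 proliferation markers was 5.47 against 7.47 and 7.32. Acat2 was at 5.52, 4.33 and 5.75 and Fdps at 6.38, 5.82 and 6.62 in these libraries, replicate 2 being lowest in both. Without it 1 gene passed at this dose as with it, without replicate 1 of the group 3 passed and without replicate 3, 2. At 0 µM 5 passed without NTC replicate 3 and 3 without sgRNA 1 replicate 2. At 0.0006 µM 3 passed without NTC replicate 2 or 3, and at 0.016 µM 3 without sgRNA 1 replicate 1.

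In NTC macrophages 10 µM baricitinib was compared with 0 µM. Of 30 genes 8 were higher and 1 lower, with 5.88% of all genes higher, and all 8 belonged to the 20 sterol genes. Acat2 was at 5.29, 5.12 and 5.26 at 0 µM and at 6.23, 6.21 and 6.27 at 10 µM, a difference of 1.01 (SE 0.22, adjusted p = 0.0029). Idi1 rose from 5.72, 5.79 and 5.87 to 6.71, 6.48 and 6.72, a difference of 0.84 (SE 0.16, adjusted p = 0.000962), and Fdps from 6.02, 6.11 and 6.28 to 6.74, 6.88 and 7.08, a difference of 0.76 (SE 0.15, adjusted p = 0.000965). None of these groups overlapped. Nsdhl rose by 0.57 (SE 0.10, adjusted p = 0.000653), and Srebf1 fell by 1.03 (difference -1.03, SE 0.29, adjusted p = 0.0163). The calls of Idi1, Fdps, Nsdhl and Acat2 passed in every setting other than a fold limit. Without NTC 0 µM replicate 1, 5 genes passed, and without NTC 10 µM replicate 1, 4.

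In sgRNA 1 macrophages the same dose was compared in the same way. Of 30 genes 13 were higher and 10 lower at 10 µM, 23 in all, while 65.8% of all genes passed, 33.9% higher and 31.9% lower, so genes at large also moved in both directions. The 23 calls passed in every setting other than a fold limit. The sterol mean was 4.80 ± 0.11 at 0 µM (SD, n = 3) and 4.86 ± 0.07 at 10 µM (SD, n = 4), overlapping. The fatty acid mean was lower by 0.64 (difference -0.64, pooled SD 0.23), without overlap. The 20 sterol genes held 12 that were higher and 6 that were lower, and the 10 fatty acid genes 1 that was higher and 4 that were lower.

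Among the genes that rose, Acat2 was at 4.50, 4.57 and 5.05 at 0 µM and at 7.23, 7.04, 6.81 and 7.09 at 10 µM, a difference of 2.33 (SE 0.20, adjusted p = 1.23e-10). Fdps rose from 5.72, 5.58 and 5.75 to 7.45, 7.25, 6.89 and 7.25, a difference of 1.53 (SE 0.14, adjusted p = 1.59e-10). Insig1 rose from 2.17, 2.24 and 2.40 to 3.90, 3.97, 3.53 and 3.51, a difference of 1.46 (SE 0.26, adjusted p = 1.81e-05). No treated library overlapped an untreated one in these 3 genes. Idi1 rose by 1.43 (SE 0.15, adjusted p = 3.53e-09) and Elovl6 by 1.31 (SE 0.28, adjusted p = 0.000196).

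Among the genes that fell, Acly was at 8.32, 7.98 and 8.03 at 0 µM and at 5.59, 6.05, 6.36 and 6.12 at 10 µM, a difference of -2.08 (SE 0.12, adjusted p = 7.47e-14). Dhcr7, a sterol reductase of the last steps to cholesterol, was at 5.95, 5.64 and 5.45 against 3.31, 3.15, 4.02 and 3.60, a difference of -2.16 (SE 0.18, adjusted p = 7.15e-11). Fads1, a polyunsaturated fatty acid desaturase, was at 5.13, 4.74 and 4.84 against 1.93, 2.26, 3.87 and 0.52, a difference of -2.76 (SE 0.42, adjusted p = 1.85e-06). All untreated libraries lay above all treated ones. The transcripts of the 2 transcription factors fell too, Srebf2 from 6.19, 4.91 and 4.33 to 2.58, 2.95, 3.34 and 3.28 (difference -2.10, SE 0.27, adjusted p = 1.49e-07) and Srebf1 by 2.11 (difference -2.11, SE 0.27, adjusted p = 9.55e-08). Mvd fell from 4.49, 4.17 and 4.17 to 2.28, 1.40, 2.56 and 2.82 (difference -2.01, SE 0.21, adjusted p = 3.89e-09), and Lss, Scap, Mvk and Acaca fell by 1.97, 1.54, 1.28 and 0.92 on the log2 scale.

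The response to 10 µM differed between the guides for 14 of 30 genes, 5 with a higher and 9 with a lower response in sgRNA 1 cells, while 39.5% of all genes passed. Acly changed by -0.26 in NTC cells (SE 0.13, adjusted p = 0.196, not passing), a difference in response of -1.82 (adjusted p = 3.38e-08). The response of Dhcr7 differed by -2.21 (adjusted p = 4.87e-07), that of Mvd by -2.14 (adjusted p = 5.52e-06), that of Fads1 by -2.65 (adjusted p = 0.00124) and that of Srebf2 by -1.73 (adjusted p = 0.00121). Acat2 (1.32, adjusted p = 0.00101), Insig1 (1.11, adjusted p = 0.0217), Fdps (0.77, adjusted p = 0.00332), Ebp (0.63, adjusted p = 0.012) and Idi1 (0.59, adjusted p = 0.0344) had the higher response in sgRNA 1 cells, and of these the calls of Insig1, Ebp and Idi1 were each lost under at least 1 setting.

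**Figure D4:**
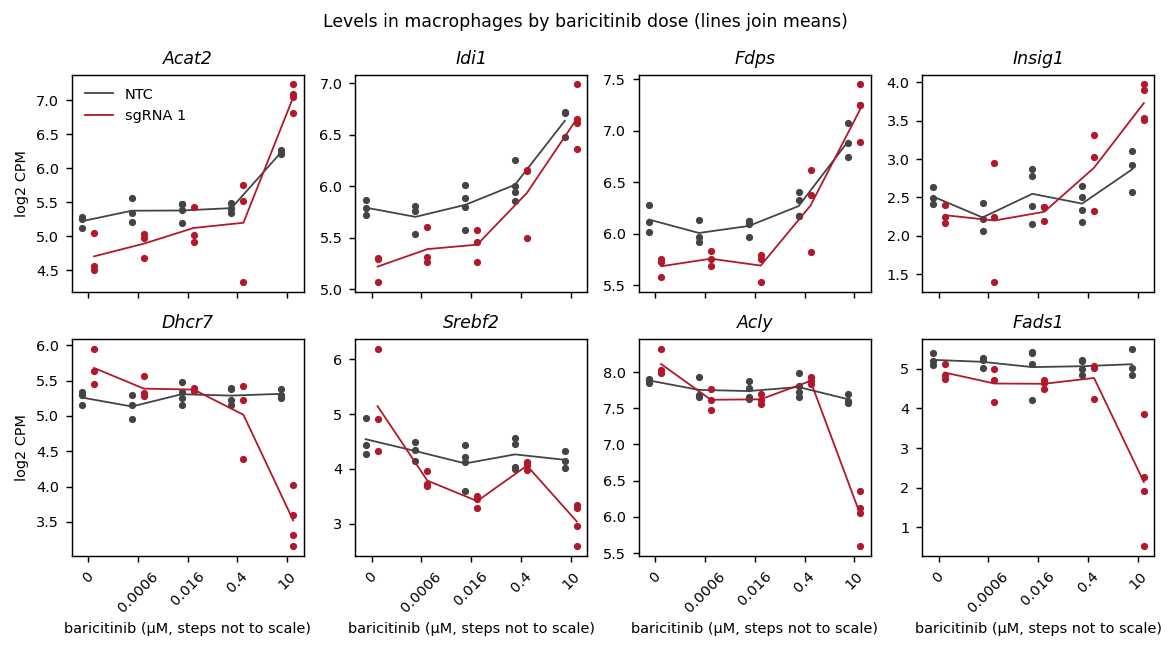
Log2 CPM of 8 genes in NTC and sgRNA 1 macrophages at the 5 labelled doses of baricitinib, one point per library with lines through the group means (doses are evenly spaced, not to scale). At 10 µM Acat2, Idi1 and Fdps are higher in both lines, and in sgRNA 1 cells Dhcr7, Srebf2, Acly and Fads1 are lower, Acly at 5.59 to 6.36 against 7.98 to 8.32 untreated.

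Several measures moved with the 10 µM response in sgRNA 1 cells. Adar itself was at 7.42, 6.52 and 6.37 at 0 µM and at 1.55, 2.15, 2.91 and 2.03 at 10 µM. The 6 proliferation markers summed to 279.2 to 359.4 CPM at 0 µM and 2227.2 to 3169.9 at 10 µM, and in NTC cells to 751.1 to 1020.0 and 1482.9 to 2052.2. Of 8 interferon-stimulated genes 7 were lower in sgRNA 1 cells, their mean log2 CPM going from 6.78 to 6.98 at 0 µM to -0.60 to -0.28 at 10 µM. In NTC cells 1 passed as lower (Usp18, difference -4.46, SE 1.34, adjusted p = 0.026), while the mean went from 1.21 to 1.48 at 0 µM to -0.91 to -0.43 at 10 µM without overlap. The base composition of the transcripts differed between the directions, with a median GC content of 48.2% (41.9 to 57.0) in the 13 genes that were higher, 55.4% (49.1 to 59.6) in the 10 that were lower and 49.5% in the 7 that did not pass. Across the 30 genes the rank correlation of GC content with the log2 difference was -0.52, and across 10401 genes it was -0.35 (a description across genes that share the same libraries). In NTC cells these were -0.51 and -0.23. In sgRNA 1 cells the 6 macrophage markers summed to 6305.6 to 6936.1 CPM at 0 µM and 3488.8 to 4182.4 at 10 µM, the 5 progenitor markers to 1.6 to 3.1 and 11.1 to 14.4, and the 5 microglia markers to 671.6 to 1020.3 and 1513.2 to 1890.8. In NTC cells the macrophage sums were 6113.4 to 6274.4 and 4834.4 to 5226.8. The part of cell division, cell state, interferon signalling and base composition in the result was not tested.

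**Figure D5:**
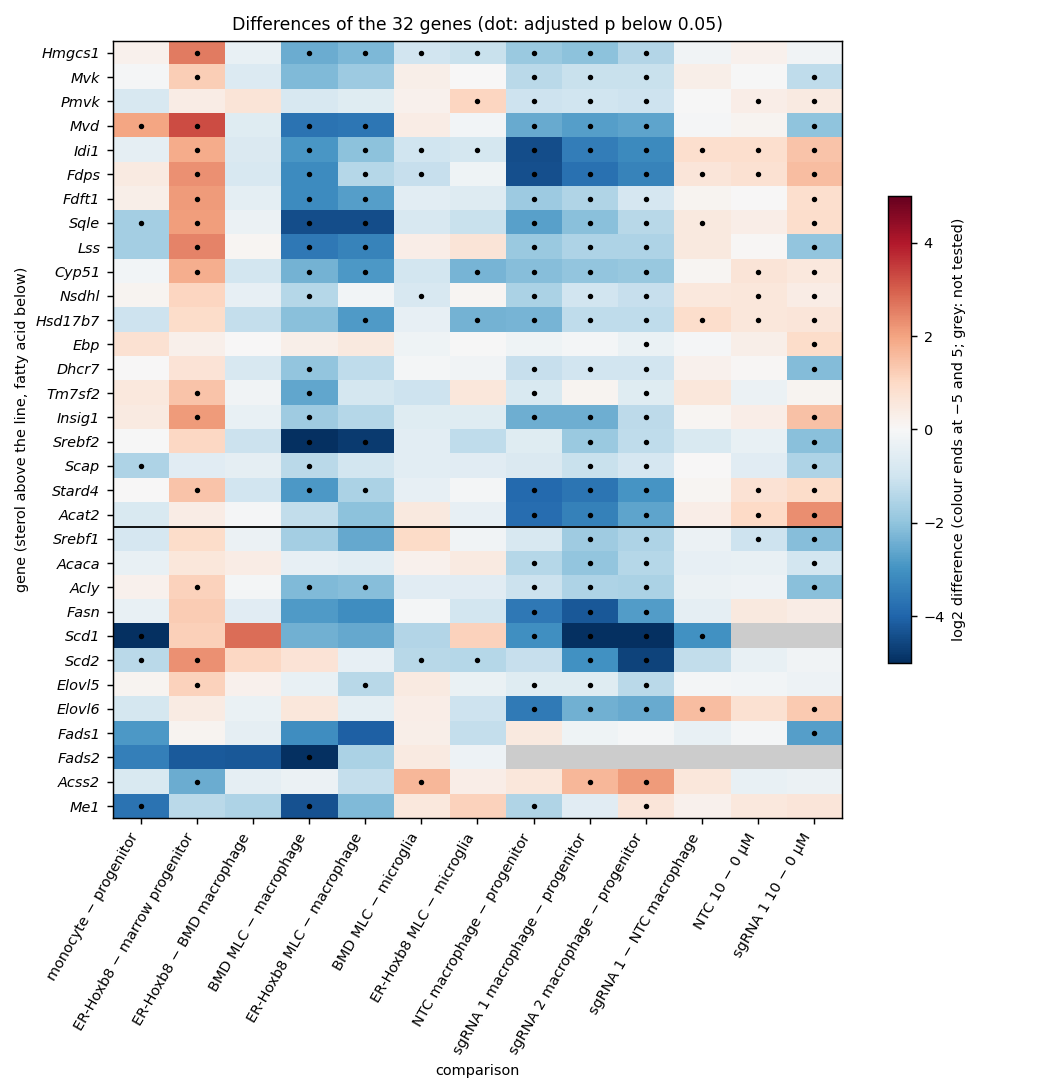
Log2 differences of the 32 genes (rows, sterol genes above the line and fatty acid genes below) in 13 comparisons (columns), with the colour scale ending at -5 and 5, a dot at an adjusted p below 0.05 and grey where a gene was not tested. The columns of MLCs against macrophages and of macrophages against progenitors hold the most lower calls (18 and 13, and 24, 26 and 28), and the 10 µM column of sgRNA 1 macrophages holds both directions (13 higher, 10 lower).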

How the data were processed

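Bulk RNA-seq of 92 libraries was analysed from 1 deposited table. Per the study's methods and the submitters' processing notes, the authors trimmed reads, quantified them with kallisto 0.46.0 against GRCm39 transcripts, summed them to genes, normalized by TMM in edgeR and deposited log2 CPM; that this was done separately in 6 sets was inferred here from the lowest values. Counts and depth are not used here. The authors sequenced the baricitinib libraries apart from the others. The row without a gene name (0.0023 to 0.0584% of a library) was left out.

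The 32 genes were chosen by name rather than by a measured threshold, but they, their roles and the other lists were chosen with earlier results of these data known. Samples were grouped by the labels. Within each set, genes above 1 CPM in at least 3 libraries (6 in the macrophage and brain set) were fitted with group means in limma 3.58.1 (R 4.3.3, trended moderation), p-values adjusted by Benjamini-Hochberg across the genes of the fit, and a threshold of 0.05. ER-Hoxb8 and BMD macrophages were compared with each other in a separate fit without the brain cells (10764 genes, against 12518 in the fit with them). In each comparison the genes given with values were taken from those with large changes among the genes that passed. Index genes of the pathway (Hmgcs1, Idi1, Sqle, Insig1, Srebf1, Srebf2, Fasn, Scd1 and Scd2) were added where they bore on it. Not every gene with a large change is printed, and others were chosen after their values were seen. Means over genes carry no test. The fits were tested on simulated data. Changes were put only into genes with a mean above 2 log2 CPM, and each gene had the same spread in all groups. Of genes changed by 2 log2 units, 57.6% were recovered for BMD MLCs against BMD macrophages and 94.6% for NTC macrophages against progenitors. These shares do not cover genes near the lowest value. Alternatives were a log2 fold limit of 2, a pseudocount of 1, no filter, quantile normalization, sample weights, a replicate block, leaving out each library, and subsets of the brain libraries. Shares of all genes given beside counts are those of the main test. Counts at an unadjusted p or under an alternative carry no such share and are not read against all genes. Between macrophages a fit with the brain cells was a further alternative, and the count stayed the same by the limit used below. Libraries with the same replicate number deviated together in each of 3 or more pairs from day 0 to day 4 (correlations 0.23 to 0.43) and between sgRNA 1 and NTC progenitors (0.16 to 0.35). Promoters were read from RefSeq on GRCm38.p6 and no positions were taken from GRCm39. Figures were drawn with matplotlib 3.10.9 in Python 3.11.15.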

Additional observations from a re-analysis of the deposited data

Results flagged for a closer look

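Single libraries lay apart from the rest of their group in 8 of the 84 group and measure combinations of 4 to 10 libraries that were examined, by the gap to the nearest library relative to the range of the group (Dixon's criterion). Chance gives about 1 in 20 for a single combination, and these combinations share libraries and are not independent. Microglia replicate 8, which has the YSWT label, accounted for 4 of them. Its sterol mean was 2.59, with the other microglia at 3.66 to 4.70, its Hmgcs1 was 6.54 against 5.60 to 6.03, its Srebf1 was -2.96 against 2.56 to 5.64, and its Scd1 was 3.76 against -3.62 to -0.74. This library also had the fewest genes above the lowest value in its set, 12915, and stood apart in the mean level of neuron markers (3.05, others at most 0.13) and astrocyte markers (3.15, others at most 0.32). The part of such cells in its values was not tested. BMD MLC replicate 3 had a sterol mean of 3.10 against 3.69 to 3.86 and an Scd1 level of 0.62 against -3.62 to -2.34. ER-Hoxb8 MLC replicate 5 had Srebf2 at -3.62 against 1.71 to 3.70. NTC macrophage replicate 4 at 0.016 µM baricitinib had Srebf1 at 4.53 against 4.10 to 4.13.

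The progenitor to macrophage step differed between sgRNA 1 and NTC cells for Idi1 (0.96), Sqle (0.65), Hsd17b7 (1.07) and Scd1 (-5.17). The response to 10 µM baricitinib differed between sgRNA 1 and NTC macrophages for Mvk (-1.27), Mvd (-2.14), Idi1 (0.59), Fdps (0.77), Lss (-2.03), Ebp (0.63), Dhcr7 (-2.21), Insig1 (1.11), Srebf2 (-1.73), Scap (-0.98), Acat2 (1.32), Srebf1 (-1.08), Acly (-1.82) and Fads1 (-2.65). These are log2 differences of the effect in sgRNA 1 cells minus that in NTC cells, tested as interaction terms in limma. Their causes were not tested.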

How the results depend on the processing

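A log2 fold limit of 2, the study's own, moved 18 of the 24 counts of genes passing by over 1.5 times, as its stricter threshold must. The counts became 2 (monocytes against marrow progenitors), 9 (ER-Hoxb8 against marrow progenitors), 0 and 2 (BMD and ER-Hoxb8 MLCs against microglia), 0 (between MLCs), 1 (sgRNA 1 against NTC macrophages), 12, 12 and 10 (macrophages against progenitors with NTC, sgRNA 1 and sgRNA 2), 1 (difference of that step), 0, 0, 0, 0 and 1 (sgRNA 1 against NTC at the rising doses), 0 and 7 (10 against 0 µM with NTC and sgRNA 1) and 4 (difference of that response). With sample weights 10 counts moved, to 14 (monocytes), 7 (between macrophages), 20 (ER-Hoxb8 MLCs against macrophages), 11 (BMD MLCs against microglia), 3 (difference between lineages), 14, 8, 11 and 4 (sgRNA 1 against NTC at 0, 0.0006, 0.016 and 0.4 µM) and 15 (NTC, 10 against 0 µM). The difference between lineages went from 0 to 1 with a pseudocount of 1, quantile normalization, GFPHox libraries alone or WTHox libraries alone. Between MLCs 2 passed with no filter, GFPHox alone or WTHox alone, and 7 without the 5 libraries under 15000 genes, a setting chosen after seeing the data. GFPHox libraries alone gave 8 (ER-Hoxb8 MLCs against macrophages) and 2 (against microglia), with fewer samples. Quantile normalization gave 2 for sgRNA 1 against NTC at 0.4 µM. The cause of the other moves was not tested.

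Leaving out 1 library at a time gave these lowest and highest counts: 2 to 6 (monocytes), 11 to 19 (ER-Hoxb8 against marrow progenitors), 0 to 4 (day 4), 0 to 0 (between macrophages), 11 to 18 and 7 to 13 (BMD and ER-Hoxb8 MLCs against macrophages), 0 to 1 (difference between lineages, 1 without ER-Hoxb8 macrophage replicate 1 or MLC replicate 4), 3 to 7 and 4 to 10 (MLCs against microglia), 1 to 4 (between MLCs), 0 to 1 and 3 to 6 (sgRNA 1 against NTC progenitors and macrophages), 25 to 26, 27 to 27 and 29 to 30 (macrophages against progenitors with NTC, sgRNA 1 and sgRNA 2), 2 to 7 (difference of that step), 3 to 10, 3 to 5, 3 to 7, 1 to 3 and 11 to 15 (sgRNA 1 against NTC at the rising doses), 4 to 7 and 23 to 23 (10 against 0 µM) and 10 to 16 (difference of that response).

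With replicate number as a block, for the pairing, 0 of the 24 counts moved by over 1.5 times (16 became 19 for ER-Hoxb8 against marrow progenitors and 24 became 27 for NTC macrophages). Over 240 calls of single genes, 2877 of 3158 values in other settings kept direction and side of the threshold, 279 kept direction but no longer passed, and 2 reversed, both for Hsd17b7 in GFPHox libraries alone: 0 against ER-Hoxb8 macrophages (adjusted p = 0.999) and 0.50 against microglia (adjusted p = 0.425). Depth is unknown, so genes near the lowest value of a set have differences set partly by the offset.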
